A study of Mus musculus with 6 samples.

Results

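The genes described here are 10 regulators of G protein signalling (RGS): Rgs2, Rgs3, Rgs4, Rgs5, Rgs6, Rgs7, Rgs10, Rgs12, Rgs14 and Rgs16. They were taken from the deposited gene table by symbol, all 10 were found, each had 1 identifier, and they were 10 of 55487 genes, or 10 of the 21 genes whose symbol is Rgs followed by a number. RNA from whole mouse aorta was sequenced in 3 libraries from mice labelled as smooth muscle cell specific knockouts of Ogt and in 3 from controls with the genotype LoxP. The sample titles name SM22, the smooth muscle gene Tagln, for knockouts and controls alike, without saying whether controls carry a recombinase. The labels give no other allele, treatment or age, and no number of mice per library. Whole aorta also holds cell types other than smooth muscle, in which the label does not place the knockout.

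RGS proteins shorten signalling by G protein coupled receptors. An activated receptor loads GTP onto a G protein alpha subunit, and the RGS domain speeds the hydrolysis of that GTP, which ends the signal. The R4 group (here Rgs2, Rgs3, Rgs4, Rgs5 and Rgs16) acts on alpha subunits of the Gi and Gq classes, the R7 group (Rgs6 and Rgs7) pairs with the beta subunit Gnb5 and acts on Gi and Go, and the R12 group (Rgs10, Rgs12 and Rgs14) acts on Gi. In arteries, Gq-coupled receptors for angiotensin, noradrenaline and endothelin drive contraction, Rgs2 limits Gq signalling and its loss raises blood pressure in mice, and Rgs5 is a marker of arterial smooth muscle and pericytes.

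Among these 10 genes, Rgs4 was the 1 that passed the test. Its level was 1.65-fold higher in Ogt knockout aortas than in control aortas, and the knockout libraries all lay above the control libraries. Rgs5, by far the most abundant of the set, and Rgs2, the Gq-selective regulator, had groups that overlapped and did not pass the test. Rgs12 was lower in all 3 knockout libraries than in any control library and did not pass the test. With each library left out in turn, Rgs4 kept its call in 1 of 6 fits.

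The coding starts of the short R4 genes are shown because the second codon sets how the proteins of 3 members are handled after translation. Rgs4, Rgs5 and Rgs16 begin with a start codon followed by a cysteine codon. Exposed at the protein's end and oxidised, that cysteine marks the protein for destruction by the arginine branch of the N-degron pathway, so the abundance of these proteins does not depend on the transcript alone. Proteins were not measured. The first 99 coding bases are given 5′ to 3′ from the GENCODE M21 transcripts (GRCm38), with capitals marking the start codon and the second codon.
Rgs4: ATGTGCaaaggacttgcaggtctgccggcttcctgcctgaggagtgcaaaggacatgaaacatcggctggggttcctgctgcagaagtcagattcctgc
Rgs5: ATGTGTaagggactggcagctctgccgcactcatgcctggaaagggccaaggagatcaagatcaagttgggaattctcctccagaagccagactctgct
Rgs16: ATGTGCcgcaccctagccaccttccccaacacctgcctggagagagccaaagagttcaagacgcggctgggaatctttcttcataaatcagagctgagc
Rgs2: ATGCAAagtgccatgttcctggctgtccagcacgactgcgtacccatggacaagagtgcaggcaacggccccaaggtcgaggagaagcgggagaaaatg

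A cysteine second codon was annotated in 3 of the 10 members, and in 180 of 21373 protein-coding genes (0.842%) with a complete coding sequence. Compared position by position without gaps, Rgs4 and Rgs5 had 66 of the first 99 bases in common, Rgs5 and Rgs16 had 59, and Rgs4 and Rgs16 had 57. Rgs2 shared 21 of the 99 with Rgs4 and 30 with Rgs5. Over the whole coding sequence, a global alignment of Rgs4 (615 bases) with Rgs5 (543 bases) gave 364 identical bases among 520 aligned, or 70.0%. Rgs5 (GRCm38 chromosome 1, 169655501 to 169695813, plus strand) and Rgs4 (chromosome 1, 169741477 to 169747642, minus strand) are neighbours with their 3′ ends facing each other, 45663 bases apart and with 0 annotated genes between them. Rgs2 (chromosome 1, 143999338 to 144004161), Rgs16 (chromosome 1, 153740349 to 153745468) and Rgs7 (chromosome 1, 175059087 to 175492500) lie further away on the same chromosome.

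Total counts per library were 11845644 to 18218385 in knockouts and 3038782 to 13738958 in controls. Control replicate 2 was the shallowest library and stood apart in composition, with 10.2% of its counts from mitochondrial ribosomal RNA against 0.491% to 0.823% in the other libraries. Levels are given as CPM, the read count of a gene per 1000000 counts of its library, with library sizes adjusted by the trimmed mean of M values. Ogt itself, the O-GlcNAc transferase gene, was at 93.3, 73.5 and 70.9 CPM in knockout replicates 1 to 3 and 177, 183 and 150.0 CPM in control replicates 1 to 3 (log2 fold change -1.10 ± 0.15 SE, edgeR adjusted p = 0.0214). The Y-linked gene Ddx3y was at 93.1 to 122 CPM in knockouts and 80.5 to 123 CPM in controls, and Xist was at most 1.12 CPM in knockouts and 1.48 CPM in controls. Smooth muscle markers were abundant, with a summed level over 10 genes of 26084.1 to 30883.5 CPM in knockouts and 31675.2 to 37762.7 CPM in controls. Summed levels of 10 genes each overlapped between the groups for endothelium (808.7 to 1747.8 CPM in knockouts, 906.7 to 1112.7 CPM in controls), fibroblasts (3920.4 to 4592.0 CPM in knockouts, 3294.4 to 5382.8 CPM in controls), white adipocytes (1199.2 to 1640.1 CPM in knockouts, 1282.9 to 1792.3 CPM in controls), cardiac muscle (107.8 to 139.4 CPM in knockouts, 99.4 to 319.6 CPM in controls, Myl3 at 0 counts) and skeletal muscle (62.2 to 83.4 CPM in knockouts, 63.8 to 89.4 CPM in controls). Within the muscle lists single genes moved against the sums: edgeR called Ckm higher (51.0 ± 10.7 CPM in knockouts, 3.19 ± 0.518 CPM in controls, adjusted p = 0.00152), Casq1 lower (16.8 ± 6.25 CPM in knockouts, 69.0 ± 9.31 CPM in controls, adjusted p = 0.0184) and Actc1 higher (17.7 ± 4.06 CPM in knockouts, 3.37 ± 2.02 CPM in controls, adjusted p = 0.0321). The summed levels of brown adipocytes were separate, at 170.3 to 222.4 CPM in knockouts and 307.6 to 443.1 CPM in controls, and their part in the results on RGS genes was not tested. In such a tissue, fewer cells of a type and less RNA per cell cannot be told apart.

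Levels of different genes were compared per kilobase of annotated exon, as CPM divided by the length of the gene's merged exons. Rgs5 stood far above the rest, with a mean of 606 ± 167 CPM per kilobase in knockouts and 421.5 ± 134 in controls (SD, n = 3 each). Rgs4 came next with 47.7 ± 2.80 CPM per kilobase in knockouts and 28.9 ± 4.10 in controls. Per kilobase, Rgs5 made up 86.5%, 87.9% and 91.3% of the summed level of the 10 genes in knockout replicates 1 to 3 and 90.2%, 89.1% and 83.7% in control replicates 1 to 3.

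Below Rgs4, control means ran from 9.68 CPM per kilobase for Rgs2 down to 0.174 for Rgs6. In controls the order was Rgs2, Rgs3, Rgs10, Rgs7 and Rgs12, with means of 9.68, 6.68, 4.64, 3.38 and 1.69 CPM per kilobase, and among these the ranges of Rgs10 and Rgs7 overlapped. In knockouts Rgs3 (7.89 CPM per kilobase), Rgs2 (7.62) and Rgs10 (6.06) followed Rgs4 with ranges that overlapped from each to the next, then Rgs7 (4.04) and Rgs12 (1.07). The ranges of Rgs2 and Rgs3 were separate in controls, with Rgs2 the higher, and overlapped in knockouts. Rgs14, Rgs6 and Rgs16 were at the bottom, each at most 0.502 CPM per kilobase in all 6 libraries.

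**Figure D1:**
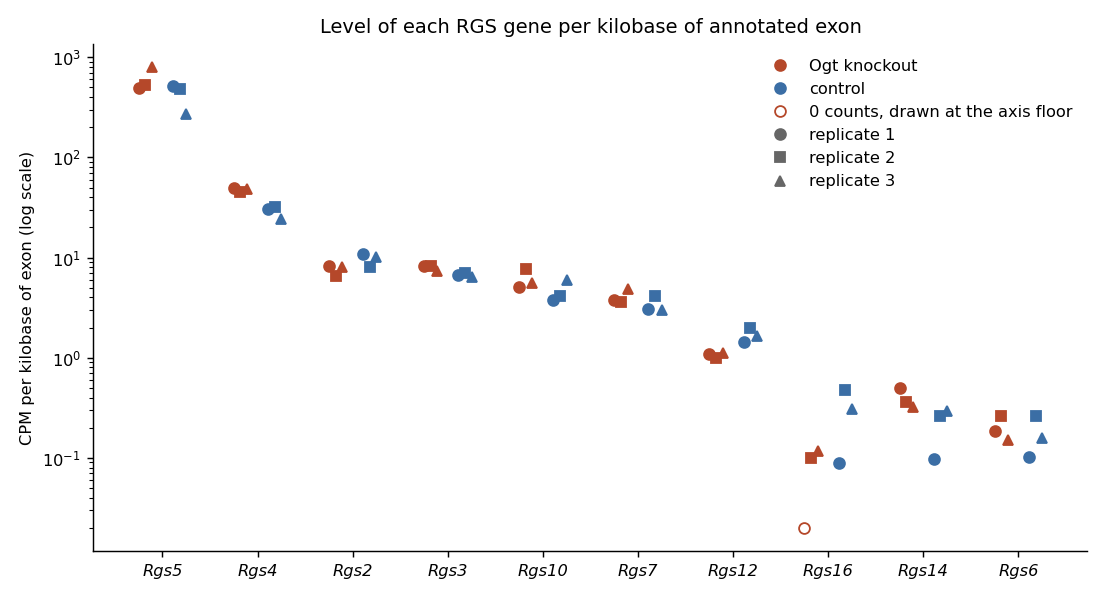
Level of each RGS gene in CPM per kilobase of annotated exon, on a log axis, with 1 point per library (Ogt knockout left of control, shapes mark replicates 1 to 3). Rgs5 lies between 268.8 and 797.8 in all 6 libraries and Rgs4 between 24.29 and 50.01, while Rgs16 had 0 counts in knockout replicate 1, drawn as an open symbol at the axis floor.

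Rgs4 encodes a small R4 regulator of Gi and Gq signalling. It was at 155, 138 and 150.4 CPM in knockout replicates 1 to 3 and at 94.2, 99.4 and 75.2 CPM in control replicates 1 to 3. Every knockout library was above every control library, and the spread within each group was small next to the distance between them. Means were 148 ± 8.67 CPM in knockouts and 89.6 ± 12.7 CPM in controls (SD, n = 3 each), which is a log2 fold change of 0.73 ± 0.14 (SE). The quasi-likelihood test of edgeR, adjusted over 16139 genes, gave an adjusted p of 0.0415, under the threshold of 0.05 that defines a call. DESeq2 and limma-voom called it as well (adjusted p = 5.56e-05 and 0.0326). The raw counts behind these levels were 1821, 2349 and 2758 in knockouts and 1371, 268 and 1035 in controls.

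Leaving out a library changed the call of Rgs4 in 5 of 6 cases. In the fit without control replicate 2, the library that stood apart, the log2 fold change was 0.81 and the edgeR adjusted p was 0.0281. Without any 1 of the other libraries it was 0.61 to 0.78 with adjusted p from 0.0635 to 0.186. In those 5 fits the number of all genes called also dropped, to between 7 and 280 against 557 with all libraries. The summed smooth muscle marker level was lower in every knockout library than in every control library, as was that of 10 pericyte markers (1416.8 to 1562.8 CPM in knockouts, 1609.0 to 2133.1 CPM in controls). In each list edgeR called 1 gene, and the sum without it overlapped between the groups. Groups did not overlap for 4 smooth muscle markers that were lower and 1 that was higher, of 10 tested. Among 9 tested pericyte markers, 3 were separate and lower and 1 was separate and higher. Over all tested genes, 14.8% were separate and lower and 16.9% separate and higher. Tagln, the SM22 gene of the sample titles, was at 2526.2 ± 297 CPM in knockouts and 5553.1 ± 1138.2 CPM in controls (SD, n = 3 each, edgeR adjusted p = 0.0331), and the other 9 smooth muscle markers summed to 23741.1 to 28014.3 CPM in knockouts and 26101.0 to 31697.4 CPM in controls. Abcc9, a potassium channel subunit in the pericyte list, was at 242.5 ± 43.6 CPM in knockouts and 425.9 ± 35.8 CPM in controls (edgeR adjusted p = 0.0434). The other 9 pericyte markers summed to 1174.1 to 1278.1 CPM in knockouts and 1224.1 to 1682.2 CPM in controls. Of the 127203 counts of the pericyte list, Cspg4 gave 63764, Pdgfrb 25082, Abcc9 24649 and Notch3 9487. Higd1b, Vtn and Cox4i2 had 34, 85 and 144 counts. Whether the counts of the list came from pericytes or from smooth muscle was not tested. The part of either cell type in the level of Rgs4 was not tested.

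**Figure D2:**
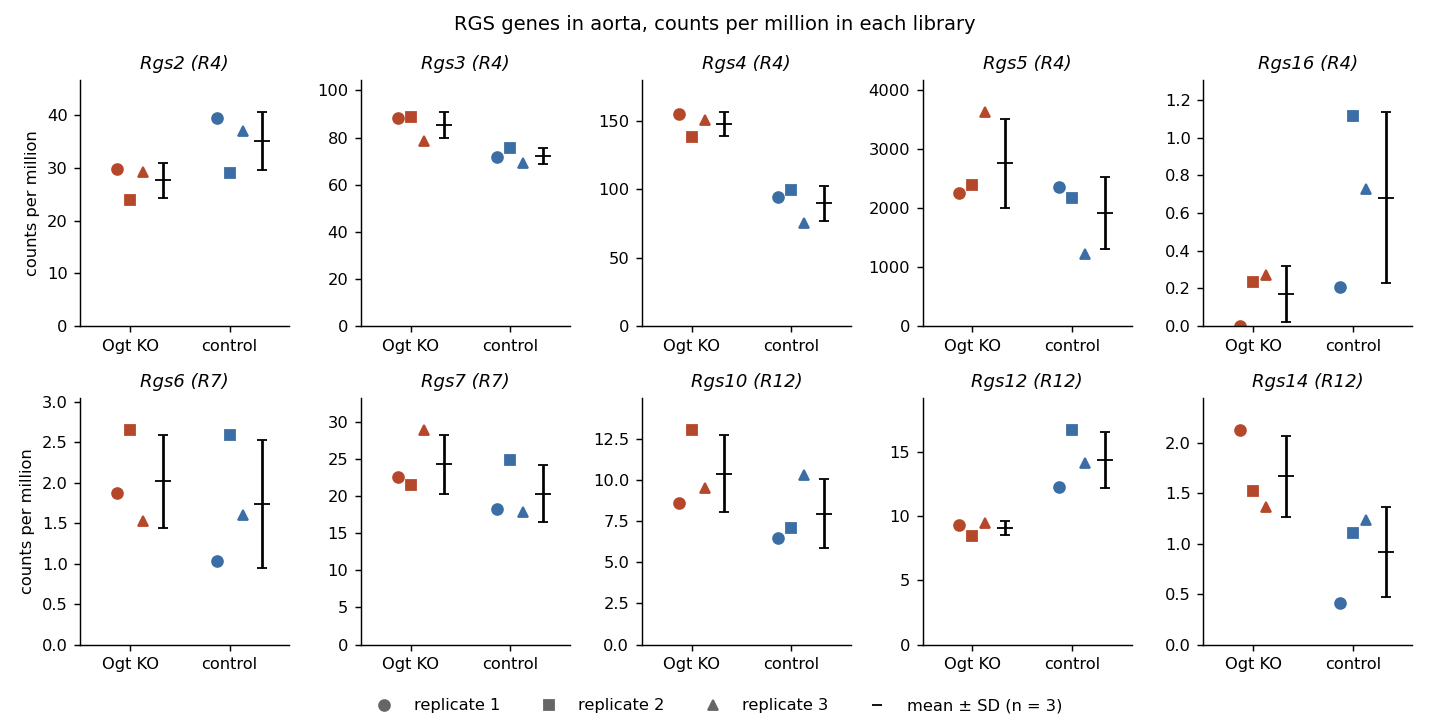
CPM of the 10 RGS genes in each library, Ogt knockout left and control right, each panel with its own axis from 0; black marks are mean ± SD (n = 3). Knockout and control points are separate for Rgs3, Rgs4, Rgs12 and Rgs14 and overlap for the other genes.

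Rgs5, the R4 regulator that marks arterial smooth muscle and pericytes, was at 2245.5, 2392.6 and 3626.9 CPM in knockout replicates 1 to 3 and at 2353.2, 2173.5 and 1222.0 CPM in control replicates 1 to 3. Knockout replicate 3 was the highest library and control replicate 3 the lowest, and the remaining 4 libraries of both groups lay together between them. The log2 fold change was 0.52 ± 0.29 (SE) and the edgeR adjusted p was 0.329. Without control replicate 3 it was 0.29, and without knockout replicate 3 it was 0.28, so those 2 libraries carried much of the difference between the means.

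Because Rgs4 and Rgs5 are close relatives and neighbours, the level of the other R4 genes was also set against Rgs5 within each library, which removes any effect of library scaling. The log2 ratio of Rgs4 to Rgs5 counts averaged -4.19 ± 0.37 in knockouts and -4.37 ± 0.32 in controls (SD, n = 3 each), a difference of 0.18 with p = 0.6 in a two-sided exact permutation test. The groups overlapped, so a change of Rgs4 relative to Rgs5 was not detected. For Rgs2 the log2 ratio to Rgs5 was -6.24, -6.65 and -6.95 in knockout replicates 1 to 3 and -5.90, -6.22 and -5.05 in control replicates 1 to 3. All 3 knockout ratios lay below the control ratios, by 0.89 on average (exact permutation p = 0.1 and 0.4 after adjustment over 4 ratios). With 3 libraries a group, 0.1 is the smallest p that this test can give. For Rgs3 the difference of log2 ratios was -0.31 (exact permutation p = 0.6), and for Rgs16, which rests on few counts, it was -2.59 (exact permutation p = 0.2).

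**Figure D3:**
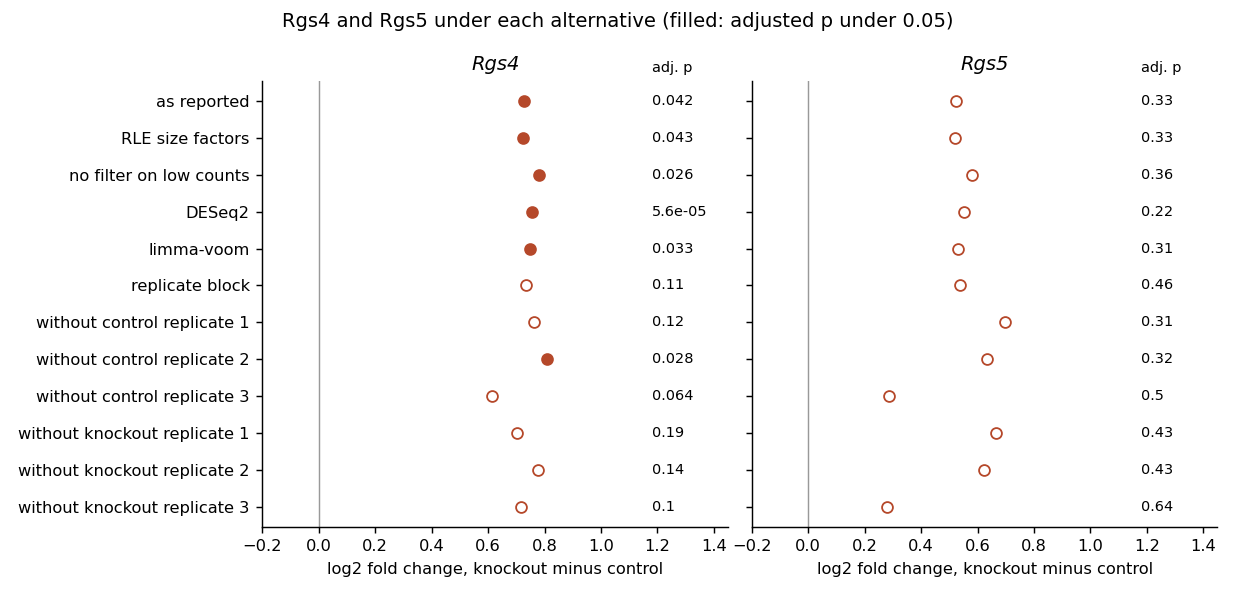
Log2 fold change (knockout minus control) of Rgs4 (left) and Rgs5 (right) as reported and under each alternative, with the adjusted p of each fit beside it; filled points have an adjusted p under 0.05. Rgs4 stays between 0.61 and 0.81 and passes the threshold in 6 of the 12 fits shown, and Rgs5 lies between 0.28 and 0.70 and passes in 0 of them.

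Rgs2, which prefers Gq and is activated by the cyclic GMP dependent kinase, was at 29.8, 23.8 and 29.3 CPM in knockout replicates 1 to 3 and at 39.4, 28.9 and 36.9 CPM in control replicates 1 to 3. Control replicate 2 lay among the knockout libraries. The log2 fold change was -0.36 ± 0.16 (SE) and the edgeR adjusted p was 0.233, and without control replicate 2 it was -0.46 (adjusted p = 0.0865).

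Rgs3, a longer R4 member with several isoforms (chromosome 4, 62559847 to 62704001), was at 88.5, 88.6 and 78.7 CPM in knockout replicates 1 to 3 and at 71.9, 75.6 and 69.1 CPM in control replicates 1 to 3. The groups were separate, but by a small distance, with a log2 fold change of 0.24 ± 0.11 (SE) and an edgeR adjusted p of 0.24. Isoforms were not resolved by counts per gene.

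Rgs16, the third member with a cysteine second codon, was near the detection limit. It had 0, 4 and 5 counts in knockout replicates 1 to 3 and 3, 3 and 10 counts in control replicates 1 to 3, and was removed by the filter on low counts. The count of 0 in knockout replicate 1 allows a level of up to 3 counts, or 0.255 CPM, which covers counting error only. Tested without the filter, the adjusted p in edgeR was 0.525, so no difference was detectable at this depth.

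Rgs6 and Rgs7 form the R7 group, whose proteins are known chiefly from neurons and, for Rgs6, from the heart's pacemaker. Rgs7 was at 22.5, 21.5 and 28.9 CPM in knockout replicates 1 to 3 and at 18.4, 24.8 and 17.9 CPM in control replicates 1 to 3, with overlapping groups. Its log2 fold change was 0.28 ± 0.19 (SE) and the edgeR adjusted p was 0.408. Rgs6 (chromosome 12, 82588292 to 83162056) rested on 22, 45 and 28 counts in knockouts and 15, 7 and 22 counts in controls, and its groups overlapped (log2 fold change 0.36 ± 0.42, edgeR adjusted p = 0.653). Their partner Gnb5 was at 12.6, 12.8 and 14.3 CPM in knockouts and 13.3, 6.67 and 10.3 CPM in controls. The membrane anchor of the R7 complex, Rgs7bp, was at 136, 123.7 and 163 CPM in knockouts and 110.5, 81.6 and 112 CPM in controls. Its groups were separate, and it did not pass the test (log2 fold change 0.47, edgeR adjusted p = 0.155).

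Rgs12 is the largest protein of the R12 group and carries, beside its RGS domain, regions that bind Ras and inactive Gi (chromosome 5, 34949445 to 35039644). It was at 9.27, 8.47 and 9.49 CPM in knockout replicates 1 to 3 and at 12.3, 16.7 and 14.1 CPM in control replicates 1 to 3. Each knockout library was below each control library. The log2 fold change was -0.64 ± 0.17 (SE), the third largest in size among the tested members, and the adjusted p was 0.0805 in edgeR, 0.0586 in DESeq2 and 0.0739 in limma-voom. Without control replicate 2, where it was highest, the log2 fold change was -0.54.

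Rgs14, which like Rgs12 binds inactive Gi (chromosome 13, 55369732 to 55384687), had 25, 26 and 25 counts in knockout replicates 1 to 3 and 6, 3 and 17 in control replicates 1 to 3. In CPM the lowest knockout library (1.36) was just above the highest control library (1.24). The log2 fold change of 0.93 ± 0.49 (SE) had an edgeR adjusted p of 0.305, and it was 0.46 without control replicate 1 and 1.47 without control replicate 3.

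Rgs10, a short R12 regulator known from platelets and microglia (chromosome 7, 128373621 to 128418758), had 101, 221 and 174 counts in knockout replicates 1 to 3 and 94, 19 and 142 counts in control replicates 1 to 3. Scaled by library, this was 10.4 ± 2.33 CPM in knockouts and 7.94 ± 2.08 CPM in controls (SD, n = 3 each). Its groups overlapped, with a log2 fold change of 0.37 ± 0.26 (SE) and an edgeR adjusted p of 0.434. The summed levels of 10 macrophage markers (607.8 to 737.9 CPM in knockouts, 353.4 to 786.4 CPM in controls) and of 10 platelet markers (258.1 to 271.2 CPM in knockouts, 185.2 to 313.4 CPM in controls) also overlapped. Itgb3 made up most of the platelet sum, and the other 9 platelet markers summed to 20.2, 49.8 and 16.7 CPM in knockout replicates 1 to 3 and 25.7, 42.3 and 25.7 CPM in control replicates 1 to 3. They were highest in knockout replicate 2, where Rgs10 was also highest. They were next highest in control replicate 2, where Rgs10 was lower than in any knockout library. Rgs10 was next highest in control replicate 3, where these markers summed to 25.7 CPM. The part of these markers in the level of Rgs10 was not tested. Lymphocyte markers were close to 0, with a summed level of 3.65 to 7.74 CPM in knockouts and 2.23 to 3.71 CPM in controls.

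Of the 10 members 9 passed the filter on low counts, and of these edgeR called 1 higher and 0 lower and did not call 8. Over all 16139 tested genes edgeR called 3.45% in either direction, 1.90% as higher and 1.56% as lower. DESeq2 and limma-voom each called the same 1 member as higher, against 5.42% of genes called higher by DESeq2 (9.95% in either direction) and 2.40% by limma-voom (4.73% in either direction). Without control replicate 2 edgeR again called that 1 member higher, against 2.97% of genes (5.51% in either direction). Of the 9 tested members 2 (Rgs4 and Rgs12) had an unadjusted p under 0.05, against 22.7% of all tested genes. Groups did not overlap for 3 members that were higher (Rgs3, Rgs4 and Rgs14) and 1 that was lower (Rgs12), against 31.8% of all tested genes in either direction. With 9 genes tested, the set as a whole is not shown to differ from other genes. The log2 fold change was positive for 7 and negative for 2 of the 9 members, with a median of 0.36, against a median of -0.01 over all tested genes, of which 48.7% were positive.

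**Figure D4:**
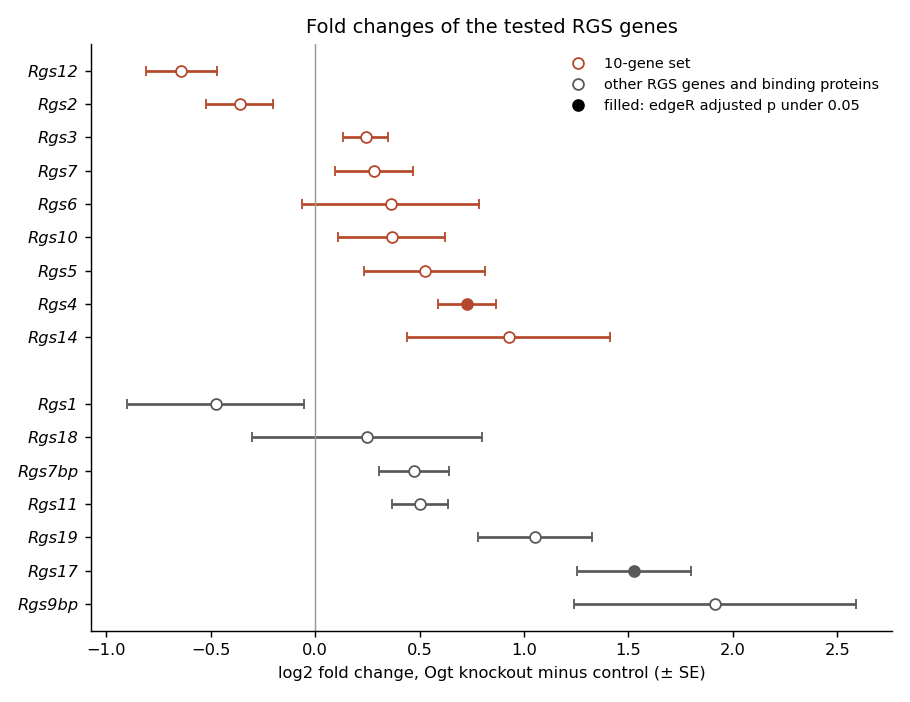
Log2 fold change, knockout minus control, ± SE of the 9 tested members (top) and of 7 tested RGS genes and binding proteins outside the set (bottom); filled points have an edgeR adjusted p under 0.05. Rgs4 (0.73) and Rgs17 (1.53) are the filled points, and Rgs12, Rgs2 and Rgs1 lie left of 0.

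The remaining RGS genes and their binding proteins, 13 in all, included a gene that rose by more than Rgs4. Rgs17, a regulator of Gi and Gz from the RZ group, was at 34.6, 56.5 and 49.6 CPM in knockout replicates 1 to 3 and at 20.6, 10.01 and 16.5 CPM in control replicates 1 to 3. All knockout libraries lay above all control libraries, and the log2 fold change of 1.53 ± 0.27 (SE) passed the test (edgeR adjusted p = 0.0357). Its adjusted p was 0.0362 without control replicate 2, and 0.0754 to 0.144, no longer a call, with another library left out. Of the 13 genes 7 were tested, and edgeR called 1 higher, 0 lower and did not call 6, against 3.45% of all tested genes called. The median log2 fold change of these 7 was 0.50. Rgs19, also of the RZ group, and Rgs11, of the R7 group, had separate groups and log2 fold changes of 1.06 ± 0.27 and 0.50 ± 0.13 (edgeR adjusted p = 0.0782 and 0.0801), and DESeq2 called Rgs19 higher (adjusted p = 0.0224). Rgs11 overlaps the gene Arhgdig on the other strand, which had 62 counts in all against 1250 for Rgs11. Rgs20 and Rgs21 had no counts in any library, and Rgs8, Rgs9, Rgs13 and Rgs22 had at most 3 counts in a library. The summed level of 10 nerve and Schwann cell markers was 277.2 to 303.1 CPM in knockouts and 215.1 to 264.3 CPM in controls. Its separation came from Uchl1, a neuronal ubiquitin hydrolase called higher by edgeR (99.7 ± 13.8 CPM in knockouts, 45.1 ± 11.02 CPM in controls, adjusted p = 0.0331). The other 9 markers overlapped, at 179.4 to 205.1 CPM in knockouts and 179.1 to 207.0 CPM in controls, and the part of nerve cells in the level of Rgs17 was not tested.

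The targets of RGS proteins are the alpha subunits. Of 13 tested alpha subunit genes edgeR called 1 higher and 0 lower and did not call 12, against 3.45% of all tested genes called. Their median log2 fold change was 0.31. An unadjusted p under 0.05 was found for 6 of them, against 22.7% of all tested genes. Groups were separate and higher in knockouts for 7, against 16.9% of all tested genes, and the list was not tested as a set. The called gene was Gnai2, an inhibitor of adenylyl cyclase found in most tissues, at 534.3, 467 and 482.4 CPM in knockout replicates 1 to 3 and 341.3, 269.6 and 324.9 CPM in control replicates 1 to 3 (log2 fold change 0.66 ± 0.14, edgeR adjusted p = 0.046). Its adjusted p was 0.0537 when no filter on low counts was applied, and of the 6 fits without a library it was called in the 1 that left out control replicate 2. Gnaz, which Rgs17 acts on, was at 10.1 ± 0.61 CPM in knockouts and 5.09 ± 1.86 CPM in controls, and Gna11, of the Gq class, at 237.5 ± 13.8 CPM in knockouts and 168 ± 26.5 CPM in controls (SD, n = 3 each). Both had separate groups and were called by DESeq2 and not by edgeR (adjusted p = 0.0976 and 0.104). Among 13 tested beta and gamma subunit genes there were 0 calls by edgeR. An unadjusted p under 0.05 was found for 4, against 22.7% of all tested genes. DESeq2 called 1 of these 13 genes (Gnb1) and limma-voom 0. The 3 with the smallest p were Gng7 (log2 fold change -1.22), Gnb1 (0.33) and Gng8 (0.78).

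Effectors and receptors gave a single call each. Of 24 tested effector genes edgeR called 1 higher and did not call 23, against 3.45% of all tested genes called. Their median log2 fold change was -0.02. Prkcd, a protein kinase C isoform that diacylglycerol activates downstream of Gq, was at 259, 232.5 and 206 CPM in knockout replicates 1 to 3 and 117, 95.3 and 113 CPM in control replicates 1 to 3 (log2 fold change 1.10 ± 0.14, edgeR adjusted p = 0.0184). It kept its call without control replicate 2 or control replicate 3 and lost it without any other library. Plcb4, a phospholipase C isoform that Gq activates, and Itpr1, the receptor that releases calcium in response to inositol trisphosphate, had lower levels in all knockout libraries than in any control library and were not called by edgeR (log2 fold change -0.77 and -0.57, adjusted p = 0.0825 and 0.211). DESeq2 called Plcb4 lower (adjusted p = 0.00963) and did not call Itpr1. For both, control replicate 2 was the highest library.

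Of 29 tested receptor genes of vascular smooth muscle edgeR called 1 higher and did not call 28, against 3.45% of all tested genes called. Their median log2 fold change was 0.18. The called gene was Htr1b, a Gi-coupled serotonin receptor, at 102, 95.9 and 113.5 CPM in knockouts and 37.7, 44.9 and 64.4 CPM in controls (log2 fold change 1.08 ± 0.20, edgeR adjusted p = 0.0404), and its adjusted p was 0.0667 without control replicate 2. Of the 6 fits without a library, the 1 without control replicate 3 kept the call. An antisense gene, D430036J16Rik, overlaps Htr1b, with 99 counts in all against 6464. Adra1d, a Gq-coupled receptor for noradrenaline, was at 19.6, 22.7 and 30.0 CPM in knockouts and 74.8, 72.3 and 37.8 CPM in controls. Its groups were separate and its edgeR adjusted p was 0.052, while DESeq2 called it lower. F2r, the thrombin receptor, was at 87.4 ± 6.18 CPM in knockouts and 64.8 ± 2.49 CPM in controls (edgeR adjusted p = 0.0735), and DESeq2 called it higher (adjusted p = 0.012).

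Receptor kinases and arrestins end signalling at the receptor, as RGS proteins do at the G protein. Of 7 tested genes edgeR called 0 higher and 1 lower and did not call 6, against 3.45% of all tested genes called. Their median log2 fold change was 0.11. Grk6, which phosphorylates active receptors, was at 22.8, 22.3 and 23.2 CPM in knockout replicates 1 to 3 and 41.0, 46.0 and 43.6 CPM in control replicates 1 to 3. It fell by 0.93 ± 0.11 on the log2 scale (edgeR adjusted p = 0.0173), with a narrow spread in both groups. The call was kept without control replicate 2 or 3, and the adjusted p ran from 0.0569 to 0.122 without any other library. Grk3 was at 47.1 ± 4.64 CPM in knockouts and 31.3 ± 6.28 CPM in controls, and Arrb2 at 23.2 ± 4.59 CPM in knockouts and 13.99 ± 5.09 CPM in controls. Neither was called by edgeR (adjusted p = 0.0861 and 0.2), while DESeq2 called Grk3 higher (adjusted p = 0.0116).

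Genes that process or modify RGS proteins were the last group. It held the methionine aminopeptidases, the dioxygenase Ado, the arginyltransferase Ate1 and ubiquitin ligases of the N-degron pathway, and Prkg1, the cyclic GMP dependent kinase that phosphorylates Rgs2. Ado had 24 counts in all and was not tested. Of 9 tested genes there were 0 calls by edgeR, 3 genes had an unadjusted p under 0.05, and DESeq2 and limma-voom each called 0. Metap1, a methionine aminopeptidase, was at 43.8 ± 1.34 CPM in knockouts and 36.3 ± 1.95 CPM in controls (SD, n = 3 each), with an edgeR adjusted p of 0.185. Over all 7 groups, edgeR called 4 genes higher and 1 lower of 102 tested, against 3.45% of all tested genes in either direction. An unadjusted p under 0.05 was found for 31 of the 102, against 22.7% of all tested genes. DESeq2 called 10 higher and 3 lower, against 9.95% of all genes it tested. It left some of the 102 untested, among them Rgs18 and Gna14. No test of a group as a set was run, so no pathway group is shown to differ from other genes by these counts.

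**Figure D5:**
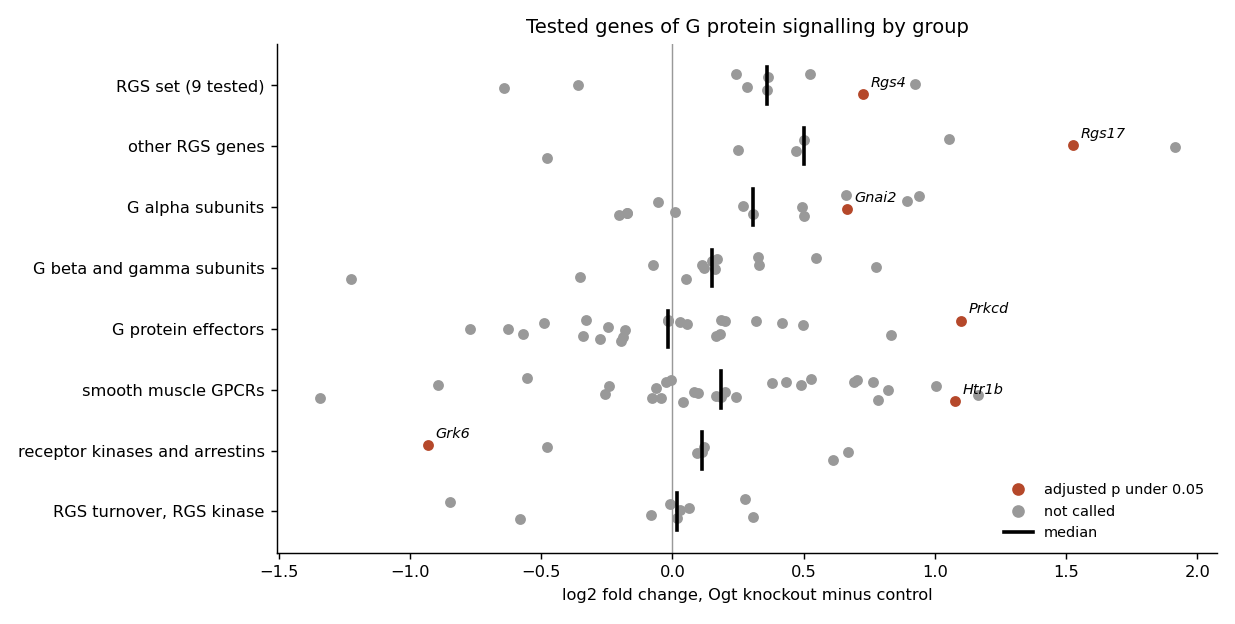
Log2 fold change, knockout minus control, of the tested genes in the RGS set and in 7 groups of G protein signalling genes; each point is a gene, black bars are medians, and named red points have an edgeR adjusted p under 0.05. Rgs4, Rgs17, Gnai2, Prkcd and Htr1b lie right of 0 and Grk6 lies left of it.

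The genes whose levels ran most closely with Rgs4 and with Rgs5 were looked up among 10911 tested genes with a mean of at least 5 CPM. Across the 6 libraries, which share the group difference, Pearson's r of log2(CPM + 0.5) with Rgs4 was highest for Wwc1 (0.998), Map3k7 (0.996) and Acvr2b (0.995). Wwc1 was at 12.8, 10.8 and 12.8 CPM in knockouts and 6.32, 7.04 and 4.94 CPM in controls and was called higher by edgeR (adjusted p = 0.0416), while it called neither Map3k7 nor Acvr2b. DESeq2 called Acvr2b higher (adjusted p = 0.0399). For Rgs5 the closest were Pitpnm2 (0.977), Haus6 (0.975) and Ctbp2 (0.972), and these 3 were not called by edgeR or DESeq2. These correlations are given as a description.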

How the data were processed

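Per the file headers, the deposited table held a read count and an FPKM value per gene and library. Library totals of the counts differed. Per the submitters' processing notes, the authors used edgeR, HISAT2, CASAVA 1.8 and SAMtools 1.3.1. How reads were counted, and whether by strand, is not given in the sources used here, so reads of overlapping genes are uncertain. The notes name GRCm39, yet 99.4% of the identifiers shared with GENCODE M21 had its GRCm38 positions, which are the ones printed. The FPKM values the authors deposited used a length within 1% of the sum of all distinct annotated exons for 97.8% of 12998 genes, which counts overlapping exons more than once. Levels per kilobase therefore used merged exons, and FPKM served for the choice of the most abundant member.

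Counts were analysed in R 4.3.3 with edgeR 4.0.16 (filterByExpr by group, TMM scaling, glmQLFit and glmQLFTest with robust estimation, no covariate), with Benjamini-Hochberg adjustment over all 16139 tested genes and a threshold of 0.05. Alternatives were DESeq2 1.42.0, limma-voom (limma 3.58.1), RLE size factors, no filter, a replicate block and 6 fits without 1 library. Fold changes are knockout over control. The edgeR steps were tested on simulated data with 100 genes changed 2-fold and 100 changed 4-fold. They called 46% of the 2-fold and 84% of the 4-fold changes, and 11 of 141 calls were false. A 2-fold change was thus missed more often than called in that simulation. Simulated libraries differed in depth and in the changed genes only, so the shift in composition of control replicate 2 was not covered. The ratios to Rgs5 used counts plus 0.5 and a two-sided exact permutation test. Coding sequences (best APPRIS rank, then longest) were aligned with Biopython 1.88. The members, the 7 pathway lists and the 12 marker lists were chosen with earlier results of these data known. Genes named are all members, Ogt, each called gene and the 3 smallest p in each pathway list, and the 3 genes most correlated with the member of smallest p and with the most abundant one. Of these, 1 gene that this rule names is not reported here. Gnb5, Rgs7bp, the RGS genes without calls and single marker genes were named outside that rule, after their values were seen, and marker sums without called genes or Itgb3 were added after seeing the data. The labels do not say that libraries come from separate mice, so p-values measure the spread between libraries, part of which may be technical. Depth was 3038782 to 18218385 counts, and floors cover counting error only. The mean chi-square per gene between pairs within a group was 15.5 to 152.5, and none was treated as a copy.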

Additional observations from a re-analysis of the deposited data

How the results depend on the processing

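The 99 refitted log2 fold changes of the 9 tested members kept their direction, and 6 of them, all of Rgs4, lost the call. The count of members called was 1 under RLE size factors, no filter, DESeq2 and limma-voom. Over the fits without 1 library it ran from 0 to 1, that of pathway genes from 0 to 7 and that of all genes from 7 to 911, so these counts depend on single libraries; the cause was not tested. DESeq2 called 13 pathway genes against 5 in edgeR, and 1491 of all genes against 557. Same-numbered libraries did not deviate together (r of 0.05, 0.09 and -0.06 for numbers 1 to 3) and the labels give the numbers no shared origin. With the replicate block, calls were 0 of the members, 0 of the pathway genes and 28 of all genes. The block cannot change the mean difference of a log2 ratio to Rgs5 (-0.89 for Rgs2), because each number has 1 library per group. The differences of the 4 ratios kept their direction under every other alternative run. Control replicate 2, the shallowest library, limits Rgs6, Rgs14 and Rgs16, where 1 count is a large step.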
